A study of Mus musculus with 8 samples.

Results

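Transcripts of 8 enzymes of asparagine, proline and glutamate metabolism were followed in neural progenitor cells of the mouse embryo by RNA-seq. The enzymes were chosen by gene symbol (Asns, Aldh18a1, Pycr1, Pck2, Got1, Gpt2, Glul and Glud1), and all 8 were found among the 32499 genes of the count table. They were compared between 4 libraries labelled 53BP1 KO and 4 labelled Control. All cells came from C57BL/6 embryos at embryonic day 14, whose neural tubes were dissociated with collagenase and sorted with NeuroFluor CDr3, a dye that binds the fatty acid binding protein Fabp7 of radial glia. The labels' protocols describe the targeted Trp53bp1 allele Trp53bp1tm1Jc and embryos with that allele from the mother and an in-frame CRISPR deletion from the father, and they do not say for each KO library which alleles it carried. The controls were wild-type embryos. The labels do not say whether a library holds one embryo or several, or whether the cells were cultured in differentiation medium first, and p-values therefore cover the spread between these libraries alone, which could be technical.

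Glutamate is the hub on which all of these enzymes but Pck2 meet. Asns, asparagine synthetase, makes asparagine from aspartate with glutamine as the nitrogen donor. Aldh18a1 and then Pycr1 turn glutamate into proline in the mitochondrion. Got1 and Gpt2 are aminotransferases that exchange the amino group of glutamate with aspartate in the cytosol and with alanine in the mitochondrion. Glul, glutamine synthetase, joins ammonia to glutamate and is known for its high level in radial glia and astrocytes. Glud1, glutamate dehydrogenase, releases ammonia from glutamate in the mitochondrion, and Pck2, the mitochondrial phosphoenolpyruvate carboxykinase, draws oxaloacetate out of the citric acid cycle. Asns is a textbook target of ATF4, the transcription factor of the amino acid response, which binds C/EBP-ATF response elements in promoters.

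Library depth was between 11081419 and 24339621 counts, and a gene with 3 counts had between 0.126 and 0.261 CPM (read counts per 1000000 of the TMM-scaled total). The group labels coincided with sex in all 8 libraries: Xist, the RNA of the inactive X chromosome, ran from 23853 to 26134 counts in the controls and from 9 to 16 in the KO libraries, and Y-linked Ddx3y was at 0 in all 4 controls and at 579 to 1064 counts in the KO libraries. Genotype and sex therefore cannot be told apart in any difference below. Trp53bp1 itself did not separate the groups (log2 fold change 0.01 with an SE of 0.14, Benjamini-Hochberg adjusted p = 0.96 by the quasi-likelihood test of edgeR, used for every adjusted p below unless another tool is named). A count over the whole gene does not test the altered part of either allele, and no value here checks the KO label. All 10 progenitor markers were present in every library, and their profile differed between the groups. Fabp7, the target of the sorting dye, made up most of their summed level (9766 to 11880 CPM in the controls, 9410 to 12660 CPM in the KO libraries) and did not pass the test, at 7591 ± 1014 against 7793 ± 1269 CPM. At an adjusted p below 0.05 by edgeR, 6 of the 10 rose and 2 fell, beside 16.1% and 13.9% of all genes tested. Nes fell to 0.535-fold (adjusted p = 0.00013) and Vim to 0.763-fold (adjusted p = 0.00379). Of the 6 that rose, Msi1 (1.83-fold, adjusted p = 0.000346) and Sox2 (1.71-fold, adjusted p = 7.7e-05) had the largest changes.

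Of the 8 enzymes, 6 were higher in the KO libraries and 2, Got1 and Glul, did not pass the test. Pck2 rose by the largest factor, 13.3-fold, followed by Pycr1 (7.86-fold), Asns (7.30-fold) and Aldh18a1 (3.61-fold), and Gpt2 (1.88-fold) and Glud1 (1.67-fold) rose by less. Over all 15021 genes tested, 16.1% rose at the same threshold (adjusted p below 0.05) and 13.9% fell. No enzyme fell by edgeR, DESeq2 or limma voom with quality weights, nor at an unadjusted p below 0.05 by edgeR. The median log2 fold change of the 8 was 1.38, beside 0.0011 for all genes tested. Because the enzymes were chosen with earlier results of these data known, the comparison with all genes is a description. The genes lie apart in the genome: Glul on chromosome 1, Asns on 6, Gpt2 on 8, Pycr1 on 11, Pck2 and Glud1 on 14, and Aldh18a1 and Got1 on 19 (GRCm38), with none on the X or Y chromosome. In bulk RNA, a change in the share of cells that express a gene cannot be told apart from a change in its level per cell.

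**Figure D1:**
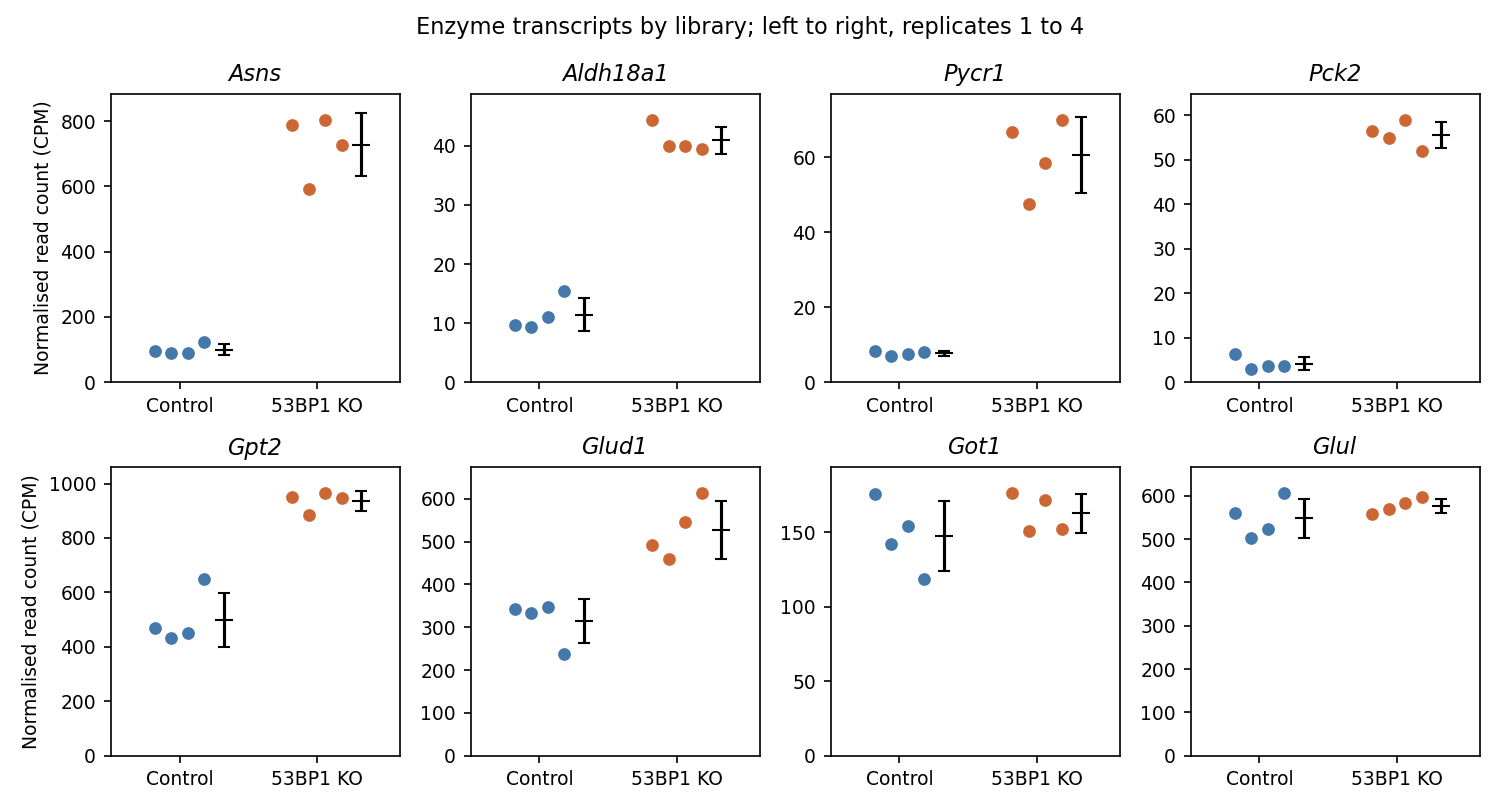
Normalised read counts (CPM, linear axes from 0) of the 8 enzymes in each library, with replicates 1 to 4 from left to right and the mean ± SD beside each group (n = 4). The groups are apart for Asns, Aldh18a1, Pycr1, Pck2, Gpt2 and Glud1, and overlap for Got1 and Glul.

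The stretch before the annotated start of transcription is shown for the 4 enzymes in whose promoter a core of the C/EBP-ATF response element, TGATGNAA, was found on either strand. Promoters were taken from RefSeq (GRCm38.p6), from 250 bases before to 50 bases after the start, and 1 such promoter was matched for each of the 8 enzymes. The printed windows are the 150 bases before the start, 5′ to 3′ on the strand of the gene, at chr6:7693210-7693359 (minus strand), chr11:120643749-120643898 (minus strand), chr14:55540116-55540265 (plus strand) and chr19:43524606-43524755 (minus strand), with the match in capitals.
Asns: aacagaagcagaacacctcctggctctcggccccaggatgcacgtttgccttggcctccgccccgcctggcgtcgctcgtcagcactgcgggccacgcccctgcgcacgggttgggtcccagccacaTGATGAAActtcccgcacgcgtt
Pycr1: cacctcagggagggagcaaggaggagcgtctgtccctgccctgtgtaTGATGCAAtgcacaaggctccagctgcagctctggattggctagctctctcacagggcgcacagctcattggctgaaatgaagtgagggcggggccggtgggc
Pck2: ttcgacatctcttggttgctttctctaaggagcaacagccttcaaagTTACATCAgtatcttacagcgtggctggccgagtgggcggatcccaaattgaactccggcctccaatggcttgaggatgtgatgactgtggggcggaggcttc
Got1: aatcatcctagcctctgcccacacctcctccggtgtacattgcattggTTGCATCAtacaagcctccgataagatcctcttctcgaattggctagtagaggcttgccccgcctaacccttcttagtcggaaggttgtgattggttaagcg

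The match lay in the sense orientation in Asns (TGATGAAA, first base at position -23 from the start) and in Pycr1 (TGATGCAA, at -103). In Pck2 (TTACATCA, at -103) and Got1 (TTGCATCA, at -102) it lay on the opposite strand. Among all 32851 RefSeq promoters of this length, 3.97% held a match. The longer TGATGAAAC, which contains the shorter motif, was found in Asns alone among the 8 enzymes and in 0.247% of all promoters. The letters were not in the windows of Aldh18a1, Gpt2, Glul and Glud1. Among the 4 enzymes with a match were the 3 with the largest rises and Got1, which did not pass the test. Of the enzymes without a match, Aldh18a1, Gpt2 and Glud1 rose and Glul did not pass the test. Whether the motif bears on the rises was not tested. A match is a description of the sequence, and binding was not measured in these libraries.

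Asns, which makes asparagine, had 96.6, 88.9, 90.7 and 123.1 CPM in controls 1 to 4 against 789.5, 592.6, 804.2 and 725.9 CPM in KO libraries 1 to 4. The lowest KO library stood 4.82 times above the highest control. The mean rose from 99.8 ± 15.8 to 728.1 ± 96.5 CPM (SD, n = 4 each), a log2 fold change of 2.87 (adjusted p = 1.52e-09 by edgeR, SE 0.13). Between 1407 and 1903 reads in each control and between 6803 and 17315 in each KO library stood behind these values. Asns ranked 58th from the top among the log2 fold changes of all 15021 genes tested.

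Both enzymes of the route from glutamate to proline rose. Aldh18a1, which reduces glutamate to the semialdehyde that closes to pyrroline-5-carboxylate, had 9.76, 9.34, 11.03 and 15.4 CPM in controls 1 to 4 against 44.4, 39.9, 39.9 and 39.5 CPM in the KO libraries. Control 4 was the highest control and KO 1 the highest KO library, and the groups were apart by a factor of 2.56 at their nearest points. Its log2 fold change was 1.85 (adjusted p = 3.82e-07 by edgeR, SE 0.14). Pycr1, the reductase that completes proline, had 8.39, 6.89, 7.54 and 8.15 CPM in the controls against 66.9, 47.5, 58.4 and 70.1 CPM in the KO libraries. The controls lay close together and KO 2 was the lowest KO library, still 5.66 times above the highest control. Its log2 fold change was 2.97 (adjusted p = 1.59e-09 by edgeR, SE 0.14).

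Pycrl, a cytosolic reductase that also makes proline, did not pass the test. It had 38.4 ± 4.35 CPM in the controls against 43.1 ± 3.74 CPM in the KO libraries (log2 fold change 0.17, 95% interval -0.06 to 0.40, adjusted p = 0.252 by edgeR). The count ratio of Pycr1 to Pycrl within a library, which needs no scaling for depth, was between 0.190 and 0.224 in the controls against between 1.23 and 1.67 in the KO libraries. The ratio was chosen after the values of both genes were seen, and it is given as a description. Scaled by exon length, Pycrl stood above Pycr1 in all 8 libraries, at 28.6 ± 3.25 against 1.97 ± 0.170 CPM per kilobase of exon in the controls and 32.2 ± 2.80 against 15.4 ± 2.57 in the KO libraries. In the KO libraries this order rests on the lengths used, since Pycr1 had more unscaled counts than Pycrl there. The lengths are the union of all annotated exons, 3.935 kilobases for Pycr1 and 1.339 for Pycrl, and the isoforms used were not measured.

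Pck2 was the least abundant of the 8 enzymes in the controls, also per exon length, and had the largest rise. It had 6.36, 2.98, 3.55 and 3.69 CPM in controls 1 to 4, from 116, 55, 55 and 57 counts, and 56.3, 55.0, 59.0 and 52.0 CPM in the KO libraries, from 631 to 1239 counts. Control 1 stood above the other controls, and the lowest KO library was 8.17 times above it. Pck2 thus rose by 3.74 on the log2 scale (95% interval 3.35 to 4.12, SE 0.18, adjusted p = 2.84e-09 by edgeR). Its cytosolic counterpart Pck1, the enzyme of liver gluconeogenesis, had between 2 and 11 counts in the controls against between 0 and 7 in the KO libraries, too few for a test. Exons of Pck2 overlap on the opposite strand with the predicted gene Gm10876 in the GENCODE M21 annotation. How the counting treated strand is not stated in the labels.

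Of the aminotransferases, Gpt2 rose and Got1 did not pass the test. Gpt2, the mitochondrial alanine aminotransferase, had 469.2, 431.5, 450.6 and 647.4 CPM in controls 1 to 4 against 951.5, 883.7, 964.3 and 948.6 CPM in the KO libraries. Control 4 was well above the other controls, and the lowest KO library exceeded it by a factor of 1.36. The log2 fold change was 0.91 (adjusted p = 5.72e-05 by edgeR, SE 0.12), and it was 0.84 to 1.05 when single libraries were left out. Gpt, the cytosolic form, had 7 to 32 counts per library and a log2 fold change of -0.11 (95% interval -0.81 to 0.60, adjusted p = 0.838 by edgeR). The ratio of Gpt2 to Gpt was higher in every KO library than in any control, with few Gpt counts behind it, and this too is a description.

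Got1, the cytosolic aspartate aminotransferase, had 175.6, 141.9, 154.3 and 118.6 CPM in the controls against 176.3, 150.6, 172.0 and 152.4 CPM in the KO libraries. The groups overlapped, and control 4 was the lowest library. The log2 fold change was 0.14 (95% interval -0.10 to 0.38, adjusted p = 0.375 by edgeR), which bounds a rise at 1.30-fold. Its mitochondrial partner Got2 had 232.3 ± 12.8 CPM in the controls against 204.1 ± 12.3 CPM in the KO libraries (-0.19, adjusted p = 0.105 by edgeR, SE 0.08). The ratio of Got1 to Got2 was 0.501 to 0.707 in the controls and 0.695 to 0.903 in the KO libraries, and the ranges overlapped.

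Of the enzymes that link glutamate to ammonia, Glud1 rose and Glul did not pass the test. Glud1, which releases ammonia, had 342.3, 332.1, 347.6 and 237.6 CPM in controls 1 to 4 against 492.1, 458.6, 545.3 and 612.8 CPM in the KO libraries. The groups were apart by a factor of 1.32 at their nearest points, and control 4 stood below the other controls. The log2 fold change was 0.74 (adjusted p = 0.000503 by edgeR, SE 0.13) and 0.62 without control 4. Glud-ps, a processed pseudogene, is annotated for Glud1, and reads shared with it may be counted to either.

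Glul, which fixes ammonia, had 559.4, 503.4, 522.3 and 605.8 CPM in the controls against 558.8, 569.1, 582.6 and 596.1 CPM in the KO libraries. All 4 KO libraries lay within the range of the controls. The log2 fold change was 0.07 (95% interval -0.11 to 0.26, adjusted p = 0.55 by edgeR), which bounds a rise at 1.19-fold. Teddm2, on the opposite strand and sharing exon sequence with Glul, had 11 to 24 counts per library, against at least 6533 for Glul. Whether the change of Glud1 differs from that of Glul was not tested.

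**Figure D2:**
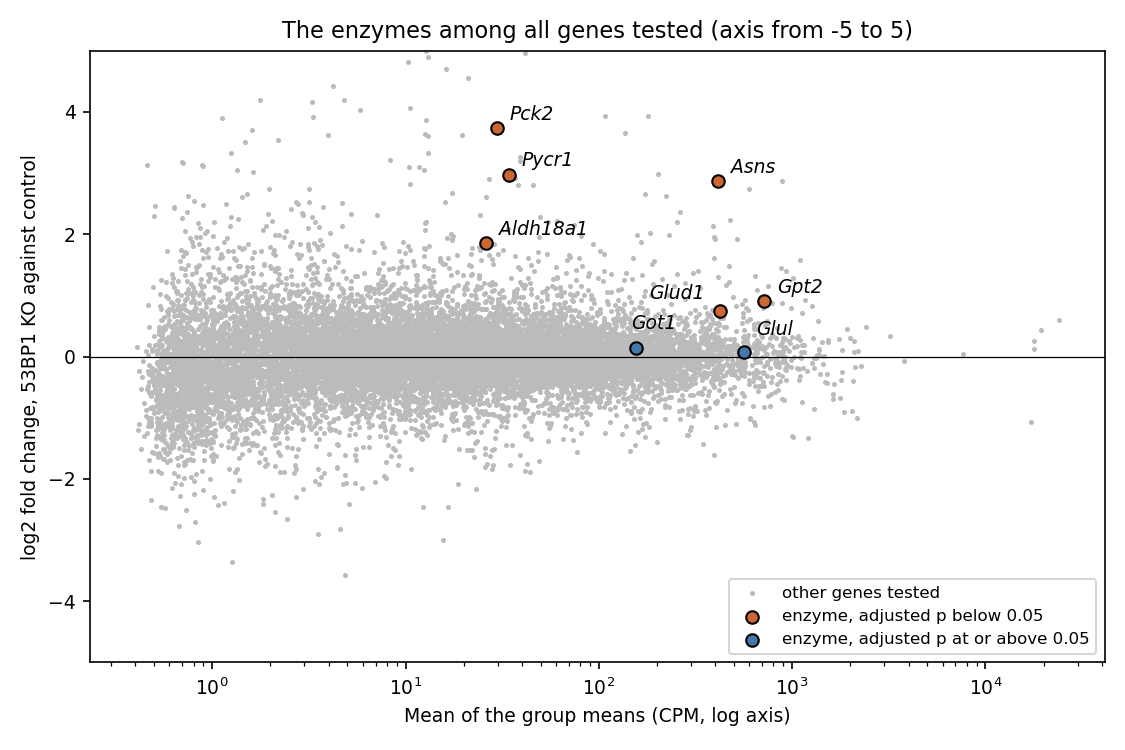
Log2 fold change against the mean of the group means (CPM, log axis) for all 15021 genes tested (grey), with the 8 enzymes as large points. Pck2, Pycr1, Asns and Aldh18a1 lie near the upper edge of the cloud, and Got1 and Glul near 0; 12 genes beyond 5 in size lie outside the axis.

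For 6 of the 8 enzymes all 4 KO libraries lay above all 4 controls, which held for 15.9% of all genes tested, and for none did the KO libraries lie below. The spread among replicates was uneven. The coefficient of variation in the controls ran from 8.24% (Glul) to 36.4% (Pck2), and in the KO libraries from 2.82% (Glul) to 16.6% (Pycr1). Control 4 was the highest control for Asns, Aldh18a1, Gpt2 and Glul and the lowest for Got1 and Glud1. KO 2, the library with the fewest counts, was the lowest KO library for Asns, Pycr1, Got1, Gpt2 and Glud1. Without control 4 and without KO 2 in turn, the same 6 enzymes passed the test.

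Scaled by exon length, Asns stood below Glul, Gpt2, Glud1 and Got1 in the controls and above all of them in the KO libraries. In the controls, Glul led with 164.8 ± 13.6 CPM per kilobase of exon, followed by Gpt2 (88.6 ± 17.7), Glud1 (74.8 ± 12.3), Got1 (58.1 ± 9.38), Asns (36.5 ± 5.80), Aldh18a1 (2.80 ± 0.687), Pycr1 (1.97 ± 0.170) and Pck2 (0.531 ± 0.193). The ranges of Gpt2 and Glud1 overlapped, as did those of Glud1 and Got1. In the KO libraries Asns led with 266.2 ± 35.3 CPM per kilobase, ahead of Glul (173.5 ± 4.88) and Gpt2 (166.1 ± 6.42), whose ranges overlapped, then Glud1 (125.2 ± 16.0) and Got1 (64.1 ± 5.21). Pycr1 (15.4 ± 2.57), Aldh18a1 (10.1 ± 0.572) and Pck2 (7.12 ± 0.374) remained the lowest. Lengths are the union of all annotated exons, 7.81 kilobases for Pck2 and 2.73 for Asns, and a gene whose long isoforms are not used is set too low on this scale.

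The other genes of these pathways moved in both directions. Of 47 genes in 4 lists, 43 could be tested: 9 rose, 4 fell and 30 did not pass, or 20.9% and 9.3% beside 16.1% and 13.9% of all genes. Their median log2 fold change was -0.04. None of 8 genes of asparagine and aspartate handling passed by edgeR (median -0.15), while 2 were lower at an unadjusted p below 0.05, DESeq2 called none and limma voom called 1 lower. Among them, Asrgl1, an asparaginase, had 331.7, 312.7, 324.4 and 660.6 CPM in controls 1 to 4 against 396.8, 362.6, 396.5 and 424.1 CPM in the KO libraries. Control 4 lay above all other libraries and the other 3 controls below all KO libraries. The log2 fold change was -0.04 (95% interval -0.46 to 0.37, adjusted p = 0.888 by edgeR) with all libraries and 0.28 (adjusted p = 0.0219 by edgeR) without control 4.

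Of 10 proline genes 2 rose by edgeR (median 0.20). None of them fell by edgeR, at an adjusted or an unadjusted p below 0.05, and none fell by DESeq2 or voom. Oat, ornithine aminotransferase, which feeds ornithine into proline synthesis, rose from 202.5 ± 17.3 to 271.8 ± 13.8 CPM (0.42, adjusted p = 0.00213 by edgeR, SE 0.09). Arg2, the mitochondrial arginase that supplies ornithine, rose by 1.84 (SE 0.44) from 3 to 12 counts per control library to 17 to 30 per KO library. Prodh, which starts the breakdown of proline, had a log2 fold change of 0.24 (95% interval -0.14 to 0.62).

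Of 20 genes of glutamate and glutamine metabolism 6 rose and 3 fell (median -0.12). Bcat1, the cytosolic branched-chain aminotransferase, which forms glutamate from leucine, isoleucine and valine, rose from 18.02 ± 4.91 to 56.0 ± 4.17 CPM (1.64, adjusted p = 3.24e-06 by edgeR, SE 0.16). Abat, which breaks down GABA, rose by 0.99 (SE 0.12), and Gad1, which makes GABA from glutamate, rose by 0.79 (SE 0.26) from a level of 1.71 ± 0.500 CPM. The call for Gad1 was lost without KO 2, KO 4, control 1 or control 3. Ppat, which uses glutamine in purine synthesis, fell by 0.65 on the log2 scale (SE 0.19), a call lost without KO 1 or KO 4.

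Of 5 genes around phosphoenolpyruvate, pyruvate and 2-oxoglutarate 1 rose and 1 fell (median -0.14). Pcx, pyruvate carboxylase, which refills oxaloacetate, rose by 0.36 (adjusted p = 0.027 by edgeR, SE 0.11), a call lost without KO 4, control 2 or control 3. Me2, the mitochondrial malic enzyme, fell by 0.36 on the log2 scale (adjusted p = 0.0447 by edgeR, SE 0.13). Its call was lost without any single library other than control 1 or control 2.

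**Figure D3:**
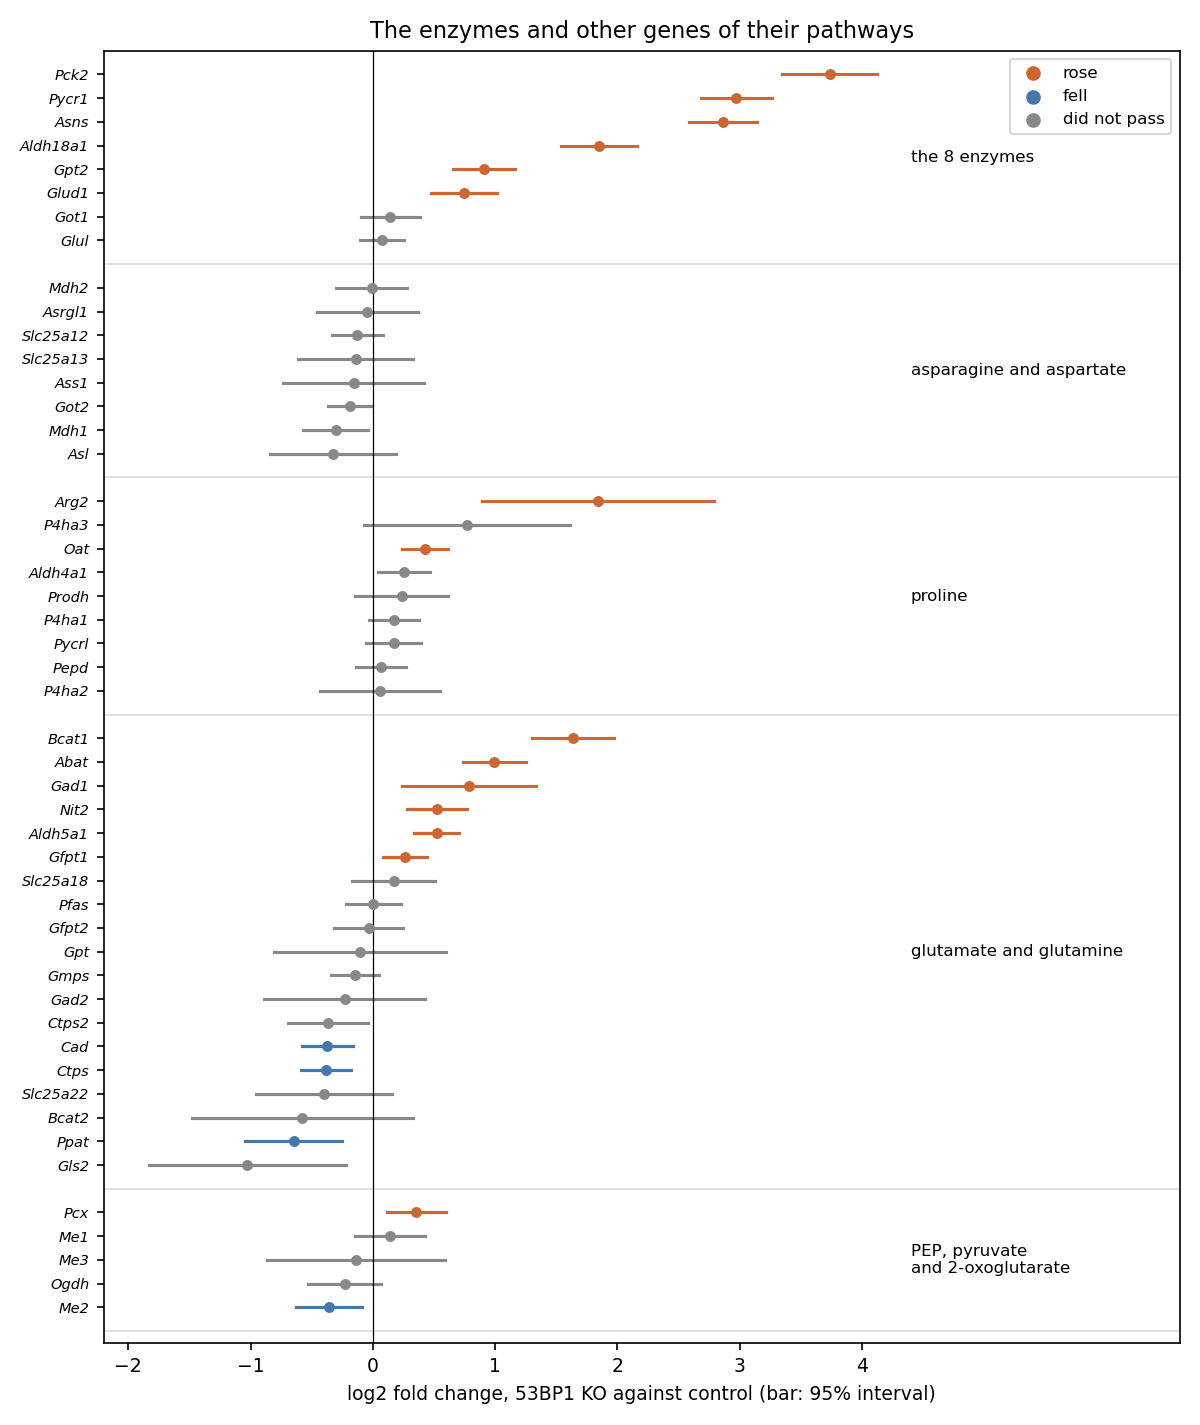
Log2 fold change with its 95% interval for the 8 enzymes and 41 other genes of their pathways, by list, with colours for genes that rose, fell or did not pass. Pck2, Pycr1 and Asns have the highest values shown, and the 8 genes of asparagine and aspartate handling all lie at or below 0 without passing.

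The genes whose level followed each responding enzyme most closely over the 8 libraries were sought among 10172 genes by Pearson's r of log2(CPM + 1). The r values were between 0.992 and 0.999, and in 8 libraries of 2 groups that stand apart they cannot separate the step between the groups from a finer likeness. For Asns these were Arl14ep, Cth, which makes cysteine from cystathionine, and Mthfd2, a mitochondrial folate enzyme. For Aldh18a1 they were Pde4dip, the arginine and lysine transporter Slc7a1 and Fbln5, for Pycr1 the mitochondrial chaperone Hspa9, Sesn2 and Fbln7, and for Pck2 Sept8, Uap1l1 and Zfp964. For Gpt2 they were Ezr, Vdac3 and Hhip, and for Glud1 Akr1b7, Scarb2 and Nmi.

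Markers of other cell types differed between the groups beside these enzymes. The counts below stand beside 16.1% of all genes tested that rose and 13.9% that fell. Of 7 astrocyte markers tested, 6 rose, and their summed level was 272.7 to 339.7 CPM in the controls against 664.4 to 801.2 CPM in the KO libraries. Slc1a2 made up most of that sum, at 212.1 ± 46.0 against 458.9 ± 54.9 CPM (2.16-fold). Gfap rose 9.6-fold, S100b 4.58-fold and Aqp4 3.40-fold by edgeR. Aldoc and Gja1 rose by less than Slc1a2, and Aldh1l1 did not pass the test. Of 10 progenitor markers 6 rose and 2 fell. Of 8 neuronal markers 2 rose and 2 fell (summed level 398.8 to 522.6 CPM in the controls, 368.1 to 445.2 CPM in the KO libraries), and of 7 oligodendrocyte lineage markers 3 rose and 2 fell (2650 to 2972 and 2453 to 2919 CPM). Of 4 mesenchymal markers tested 3 fell (29.5 to 77.6 against 9.70 to 12.2 CPM), and of 4 muscle markers 2 fell (36.3 to 48.0 against 22.7 to 25.2 CPM). Control 4 set the top of the mesenchymal range, with Col3a1 at 54.0 CPM against 19.5 to 25.1 CPM in the other controls. In the KO libraries Col3a1 was at 5.86 to 7.93 CPM. Neuronal Tubb3, among the 2 that rose, was at 39.0 CPM in control 4, within the KO range of 32.1 to 40.6 CPM. The endothelial, microglial and erythroid lists summed to at most 12.0, 4.78 and 2.28 CPM in any library, with 1 of 2, 0 of 1 and 0 of 1 tested genes falling and Hba-a1 at 0 in every library. The part of these cells in the enzyme levels was not tested.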

How the data were processed

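RNA of sorted neural progenitor cells was sequenced as paired ends after a stranded total RNA preparation, per the labels' protocols. The authors deposited whole-number read counts per gene symbol. Builds mm9 and NCBIM37 and the tools HTSeq 0.6.1p1 and CASAVA appear in the submitters' processing notes; the aligner, strand setting and treatment of shared reads are not stated there or in the labels. Depth was 11081419 to 24339621 counts per library.

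Genes were kept by filterByExpr (15021 of 32499), scaled by TMM and compared in edgeR 4.0.16 (R 4.3.3) by its quasi-likelihood test, 4 KO against 4 control libraries without covariates, with Benjamini-Hochberg adjustment over all genes tested and a threshold of 0.05. An SE is the log2 fold change divided by the square root of its F statistic. In simulated counts with the depths and spread of these libraries, 98 of 14748 genes were changed 1.5-fold and 95 were changed 2-fold. The test recovered 46.9% and 82.1% of them, and 6.06% of its calls were false. Far more genes passed in the real libraries (2412 and 2087 of 15021), so these rates may not carry over to them. Alternatives were DESeq2 1.42.0, upper-quartile and RLE scaling, robust dispersion, 2 other low-count filters, a replicate block and each library left out. A further alternative was voom of limma 3.58.1 with quality weights for the libraries, called voom throughout.

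The enzymes, pathway and marker lists were chosen with earlier results of these data known. Named are all 8 enzymes, up to 4 pathway genes per list with the largest change past the threshold, close relatives (Got2, Gpt, Pck1, Pycrl) and, per responding enzyme, the 3 genes with the highest correlation and a mean of at least 5 CPM. Asrgl1, Prodh, the named cell type markers and the genes that share sequence were added after their values were seen. So were the ratios between relatives, which are given without a test. Results for 2 other relatives are not reported here. Exon lengths come from GENCODE M21 and promoters from RefSeq, both on GRCm38, by symbol. No coordinate of the counting was used.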

Additional observations from a re-analysis of the deposited data

Results flagged for a closer look

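The 8 enzymes and the pathway genes and relatives chosen by rule, 21 genes, were looked at in each group. Single libraries stood far from the rest of their group in 2 of 42 cases. Chance gives about 1 in 20, so this number is near that of chance. Aldh18a1 had 44.4 CPM in KO 1, above the other 3 KO libraries, which had between 39.5 and 39.9 CPM. Glud1 had 237.6 CPM in control 4, below the other 3 controls, which had between 332.1 and 347.6 CPM. Without that library the log2 fold changes were 1.81 and 0.62, and both genes still passed the test.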

How the results depend on the processing

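The same 6 enzymes passed the test under all 16 alternatives, and none fell. Their log2 fold changes ranged over 2.81 to 2.97 for Asns, 1.76 to 2.02 for Aldh18a1, 2.89 to 3.08 for Pycr1, 3.59 to 4.03 for Pck2, 0.84 to 1.05 for Gpt2 and 0.62 to 0.81 for Glud1. Got1 (0.04 to 0.23) and Glul (0.03 to 0.14) passed under none. Of all genes, 1753 to 2432 rose and 1497 to 2193 fell when single libraries were left out, against 2412 and 2087 with all. With upper-quartile scaling 2131 rose and 2400 fell, so that 47.0% of calls were rises in place of 53.6%, and the counts were 3127 and 2974 with voom and 2879 and 1754 without a filter (62.1% rises). The small counts of the pathway lists moved. With a minimum of 1 CPM in 4 libraries, 1 proline gene rose in place of 2, since Arg2 was filtered out. Of the asparagine and aspartate genes, 2 fell with upper-quartile scaling and 1 with voom, and with single libraries left out 0 to 1 rose and 0 to 1 fell. The fall of 1 gene around pyruvate (Me2) became 0 without a filter and with voom, and 0 to 1 rose and 0 to 1 fell with single libraries left out. Gpt, which did not pass, ranged from -0.27 to 0.039 with single libraries left out and changed sign without KO 2. Asrgl1, which did not pass with all libraries, changed sign without a filter (0.028), with voom (0.229), with a replicate block (0.032) and without control 4; with single libraries left out it ranged from -0.16 to 0.28. Apart from the filtered gene, the cause was not tested. Genes with few counts (Gpt, Arg2, Pck1) are limited by depth.

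Same-numbered libraries correlated in their deviations from the group means with r of 0.16, 0.20, -0.20 and 0.04 for replicates 1 to 4. Replicates 1, 2 and 4 of each group correlated best with their own number, and replicate 3 of neither group did. Correlations this small over few libraries cannot decide whether the replicate numbers pair the samples. With a replicate block, 2237 genes rose and 1940 fell, 6 enzymes rose, 1 asparagine and aspartate gene fell and 0 genes around pyruvate fell.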
